A study of Mus musculus with 87 samples.

Results

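ETn capture-seq was analysed in juvenile tail DNA of the 9 offspring of the first mating between Chr4-cl KO/WT mice, which were 4 Chr4-cl KO/KO animals (KO), 4 WT littermates and 1 KO/WT littermate that is shown apart. They were chosen by the tail tissue, strain B6x129X1/SvJ (F2), genotype and ancestry in the labels, and make up 9 of the 87 libraries of the series. In KO animals a run of KRAB zinc finger genes of chromosome 4 (Chr4-cl) is deleted from both alleles, and in the KO/WT animal and both parents from 1 allele. All 11 mice of the family carry a mixed C57BL/6 and 129 genome. The mother BA27228 and the father BA27084 were sequenced from tail and served as a filter. In the labels of the offspring the number of the mother lacks a digit and was read as BA27228. The KO animals were C5734, C7250, H04408 and H032265, the WT animals C5733, C5736, C5731 and H04405, and the KO/WT animal C7249. The label of H04408 gives a male, but 0.00658% of its reads lay on chromosome Y. This share was 0.142 to 0.165% in the 11 other libraries of the family and of the next mating that are labelled male, and 0.00444 to 0.00715% in the 7 labelled female.

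ETn elements are endogenous retroviruses of the mouse that are copied through RNA and insert at new sites, and some of them are still active. For this they depend on the related ETnERV elements, which hold the coding genes. KRAB zinc finger proteins bind such elements and recruit KAP1, which leads to repressive histone methylation. New insertions that arise after fertilisation are present in only some cells of an animal, whereas inherited insertions are present in every cell on 1 or both chromosomes.

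The libraries were enriched with RNA probes for the outer ends of the ETn long terminal repeats (LTRs). The probe sequences listed most often for each end are shown because the enrichment, and with it every count below, starts from these ends. Capitals mark the TG and CA with which the LTR begins and ends. The list holds the first 52 times and the second 50 times.

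5′ LTR end: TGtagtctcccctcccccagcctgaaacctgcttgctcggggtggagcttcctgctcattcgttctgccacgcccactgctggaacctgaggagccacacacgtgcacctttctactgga
3′ LTR end: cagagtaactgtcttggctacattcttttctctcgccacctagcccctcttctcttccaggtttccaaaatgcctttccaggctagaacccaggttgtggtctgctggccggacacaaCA

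Each library holds a number of uniquely mapped reads per region whose mates map to ETn. The 9 offspring had 563472 to 725506 such reads and the parents 734853 and 770028. Counts were divided by this total and scaled to RPM, reads per 1e6 such reads, and a region was called at 10 RPM, which is 5.63 to 7.26 reads in the offspring. The WT library C5733 stood apart from the rest before any comparison. It had the fewest reads of the family and 3431 called loci, whereas the other 8 offspring had 2563 to 2631. The comparisons of KO with WT animals are therefore given with and without it.

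The genotypes were first checked at the deleted region itself. The guide RNAs used to delete the cluster matched chromosome 4 once each, and their target sequences are shown with the adjoining PAM in capitals.

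Guide 1, chr4:144973820-144973839 (mm9, minus strand): caaaggggctcctcgatggaTGG
Guide 2, chr4:147227524-147227544 (mm9, minus strand): gtttatggccgtgctaaggtcAGG

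The cuts of these guides enclose chr4:144973823-147227526, which is 2.25 Mb. To ask which inherited ETn loci separate the genotypes, reads per locus were compared between the 4 KO and the 4 WT animals with edgeR (quasi-likelihood test, Benjamini-Hochberg adjusted p below 0.05). Of 2532 loci tested 14 differed, which is 0.553% of them, and all 14 lay on chromosome 4 within 8.07 Mb of the deletion. Without C5733 the test called 12 loci, all of them within 20 Mb of the deletion. Calls elsewhere in the genome appeared without the WT animal C5731 (10 of 24 calls) and without the KO animal H04408 (5 of 19), and DESeq2 made 1 of its 17 calls there. Within 20 Mb of the deletion there were 56 loci. The filter on low counts kept 23 of them, and 14 of these 23 differed, which is 60.9%. The 5 that were lower in KO lay inside the deletion and the 9 that were higher in KO lay on either side of it. The background for each direction was 0.355% of all tested loci higher and 0.197% lower in KO. The median log2 fold change was 0.088 over the 23 loci and 0.00 over all loci.

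Of the 12 loci inside the deletion, 10 were called in no KO animal and 2 in all 4 KO animals. Only 6 of the 12 were called in all 4 WT animals. Outside the deletion and within 20 Mb, 18 of 30 loci before it and 6 of 14 after it were also called in no KO animal. At chr4:145080501-145083011, 17651 bp from Gm13225, the KO animals held 2.86, 3.01, 1.46 and 4.46 RPM and the WT animals 545, 549, 551 and 547 RPM. The KO/WT animal held 425 RPM there. The log2 fold change of KO over WT was -7.46 ± 0.19 (SE, n = 4 and 4, edgeR adjusted p = 8.3e-07). At chr4:145019453-145021591, in an intron of Gm13227, the KO animals held 2.86, 1.51, 2.92 and 7.43 RPM, the WT animals 398, 406, 449 and 454 RPM and the KO/WT animal 299 RPM. The groups did not overlap at either locus, both of which were chosen by the test on these reads. The sixth tested locus inside, chr4:146107781-146109027, 11830 bp from Gm17452, did not pass the test, with 15.7, 15.1, 13.2 and 23.8 RPM in KO and 31.9, 38.5, 42.7 and 36.7 RPM in WT (log2 fold change -1.14 ± 0.20, SE, edgeR adjusted p = 0.0847).

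Another strong locus, chr4:146917867-146925152, 258 bp from Gm16503, was called in all 4 KO animals too. The KO animals held 48.6, 36.1, 79.0 and 65.4 RPM and the WT animals 628, 651, 561 and 601 RPM (log2 fold change -3.41 ± 0.21, SE, edgeR adjusted p = 9.16e-05). Of the remaining pair, both without a read in any KO library, chr4:146815715-146816638 held 29.0 ± 7.07 RPM in WT (SD, n = 4) and was at least 26.3-fold lower in KO. The other, chr4:145753883-145754619, held 17.3 ± 2.76 RPM in WT and was at least 15.7-fold lower. Both bounds set KO at 3 reads over the 4 libraries.

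Outside the deletion 9 loci were higher in KO, 6 of them with a WT mean under 10 RPM. The 8 other tested loci outside it and within 20 Mb did not pass the test, with log2 fold changes of -0.03 to 0.33. The locus chr4:147667616-147670848, 0.44 Mb from the deletion and 5542 bp from Ptchd2, held 519, 524, 481 and 486 RPM in the KO animals and 5.32, 1.54, 4.14 and 4.59 RPM in the WT animals (log2 fold change 6.95 ± 0.25, SE, edgeR adjusted p = 4.9e-06). On the other side, 3.37 Mb away in an intron of Tmem51, chr4:141597384-141600417 held 577, 595, 556 and 582 RPM in KO and at most 4.59 RPM in WT (log2 fold change 8.09 ± 0.37, SE, edgeR adjusted p = 1.79e-05). Other loci with the smallest p were chr4:155294067-155297916 at 8.07 Mb (133 ± 21.3 RPM in KO and 1.94 ± 0.78 in WT, SD), chr4:144439298-144446729, 36001 bp from Dhrs3 (379 ± 21.3 and 41.6 ± 8.97 RPM) and chr4:147689588-147692275 at Gm13206 (526 ± 27.7 and 39.5 ± 12.7 RPM). The smallest difference was at chr4:143802192-143805106, at a coding exon of C87977 and 1.17 Mb from the deletion, where the KO animals held 429, 407, 475 and 460 RPM and the WT animals 199, 209, 248 and 222 RPM (log2 fold change 1.01 ± 0.08, SE, edgeR adjusted p = 0.000428). None of the 14 loci showed any overlap between KO and WT animals, which largely follows from their choice by the test on the same reads. The share of all tested loci without overlap was not counted.

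The KO/WT animal C7249 had reads at all 14 loci. Its level lay between the KO and WT means at 12 of them, and was 66.1 to 115% of the mean of the higher group, with a median of 78.5%. The reads of all 9 offspring in this region matched their labelled genotypes, those of H04408 and C5733 included. Chromosome 4 was also searched for loci with at least 50 RPM in all KO animals and in a single WT animal. The other WT animals had to hold under 10 RPM. This search found 4 loci, 20.9 to 26.6 Mb from the deletion, where the WT animal was C5731 each time. The other WT animals held at most 9.17 RPM there and C7249 at most 6.3 RPM. The pattern was set by the search, and loci with other patterns were not counted.

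**Figure D1:**
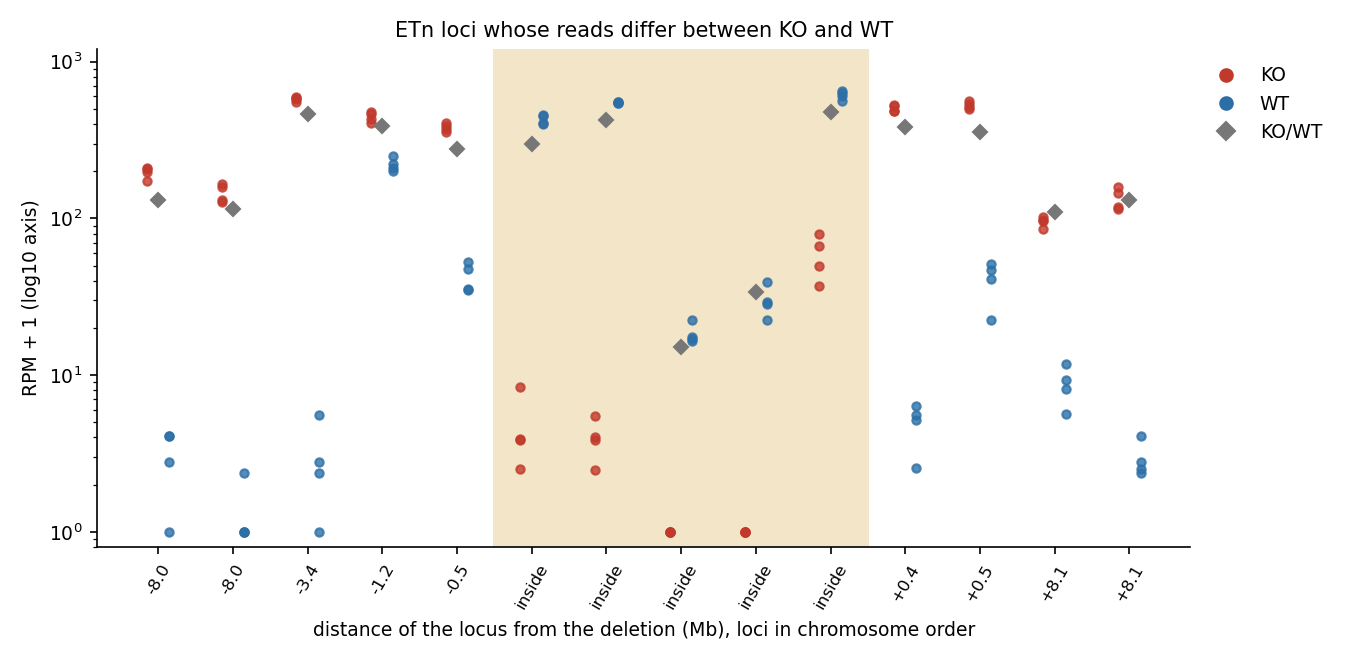
RPM plus 1 on a log10 axis at the 14 loci that differ between KO and WT, in chromosome order with their distance from the deletion in Mb; points are single animals and the shaded loci lie inside the deletion. The loci were chosen by the test on these reads. The 5 loci inside are lower in KO and the 9 outside are higher in KO, and the KO/WT animal has reads at all of them.

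The inherited ETn content of KO and WT animals was nearly equal. Loci called in an animal and in at least 1 parent numbered 2562, 2540, 2556 and 2540 in KO and 2535, 2528, 2525 and 2542 in WT, with 2526 in the KO/WT animal. The means were 2550 ± 11.2 and 2532 ± 7.59 (SD, n = 4 and 4). The percent of KO-WT pairs with the KO animal higher minus the percent with it lower was 75, but the groups overlapped and an exact two-sided permutation test of the rank sum gave p = 0.114 (adjusted over 6 tests per animal, 0.343). Without C5733 the exact test gave p = 0.2, and at 5 RPM the sign turned. C5733 held 2535 inherited loci, so its surplus of called loci lay outside those shared with a parent.

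A single-animal insertion was defined as a locus called in 1 animal and in no other of the 76 main libraries, without a read in either parent, and not within 1000 bp of sequence that resembles a capture probe. The KO animals carried 0 (C5734), 54 (C7250), 19 (H04408) and 57 (H032265) such insertions. The WT animals carried 264 (C5733), 17 (C5736), 16 (C5731) and 0 (H04405). The KO/WT animal had 18. Both genotypes thus had an animal without any, and by this definition the highest count was in WT. The medians were 36.5 in KO and 16.5 in WT, whereas the means were 32.5 ± 27.7 and 74.3 ± 127 (SD, n = 4 and 4). An exact one-sided permutation test for more insertions in KO gave p = 0.386 (adjusted 0.579), and the smallest p this design can give is 0.0143. Without C5733 the exact test gave p = 0.143.

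When regions with any read in another animal were left out, the KO counts were 0, 45, 15 and 49 and the WT counts 13, 16, 13 and 0. The KO/WT animal then had 16. C7250 and H032265 stood above every WT animal, H04408 lay within the WT range and C5734 had none. The means were 27.3 ± 23.7 in KO and 10.5 ± 7.14 in WT (SD, n = 4 and 4). The percent of pairs with more in KO minus the percent with fewer was 43.8, and the exact one-sided permutation test gave p = 0.2 (adjusted 0.4). The difference was within the spread between littermates by either count. Without C5733 the exact test gave p = 0.229, and without the KO animal C5734 p = 0.0571.

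C5733 lost 251 of its 264 regions in this step, and 4.92% of them remained. In the other 6 animals with insertions 78.9 to 94.1% remained. For the 251 regions the median number of other libraries with a read was 13. They were 1362 bp wide in the median and lay in genes in 13.9% of cases. Its 13 other regions were 395 bp wide in the median and 69.2% of them lay in genes. In the remaining animals the median width of all insertions was 347 to 472 bp. C5733 also held reads below 10 RPM at 10 of 29 loci carried by a single parent, against 1 to 5 of these loci in the other 8 offspring. The part of these features in the count of C5733 was not tested.

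**Figure D2:**
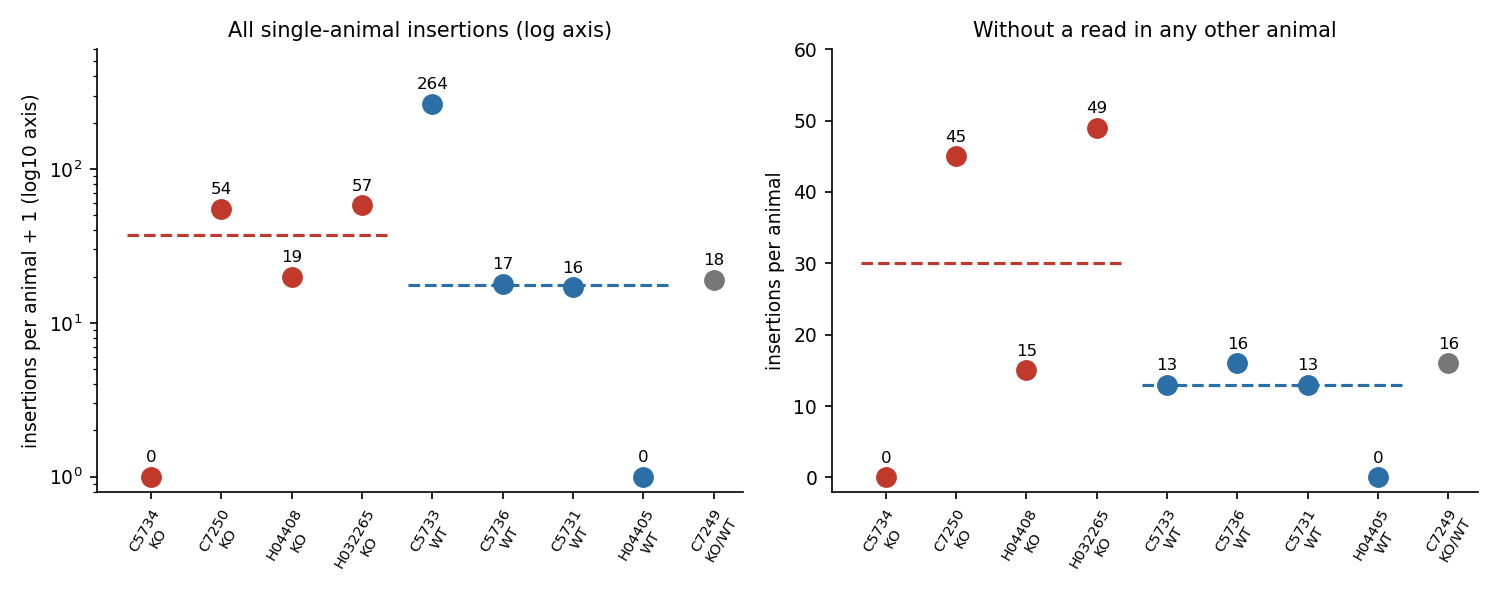
Single-animal insertions in each of the 9 offspring, on the left all of them plus 1 on a log10 axis and on the right those without a read in any other animal on a linear axis; dashed lines are the KO and WT medians. C5733 falls from 264 to 13 between the panels, and C7250 and H032265 remain highest with 45 and 49.

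Outside C5733 the pair of strongest insertions of each animal held 27.1 to 43.1 RPM. In C7250 they were chr7:53568251-53568669, 1447 bp from Otog, which encodes a protein of the inner ear matrix, with 34.6 RPM (23 reads), and chr16:21859423-21859978, 13574 bp from the lincRNA Gm17439, with 27.1 RPM (18 reads). In H032265 chr11:76852724-76853214, 4580 bp from Ccdc55, and chr3:53240142-53240589, 11921 bp from Nhlrc3, held 31.2 RPM (21 reads) each. In H04408 chr4:124726997-124727495, in an intron of Gnl2, a GTPase of the nucleolus, held 32.2 RPM and chr18:54149705-54150089, 4723 bp from Gm5507, held 30.7 RPM. The first of these also had a read in 1 other animal.

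Among the WT animals, C5736 held 43.1 RPM (28 reads) at chr1:76191402-76192091, 557648 bp from the pseudogene Gm5257, and 38.5 RPM at chr11:19365024-19365569, 80313 bp from Gm12026. C5731 held 34.5 RPM (25 reads) at chr1:135104627-135105061, 37613 bp from Plekha6, and 28.9 RPM at chr18:79661140-79661621, 88675 bp from SNORA17. In the KO/WT animal the strongest lay in introns of Spata3 (chr1:87917276-87917798, 37.8 RPM) and of Kif17, a kinesin motor (chr4:137830110-137830638, 31.5 RPM).

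C5733 held 17 regions at 40 RPM or more, and C5736 held 1. The 3 highest of C5733 were chrX:78842751-78846951, 139291 bp from 4930595M18Rik (81.6 RPM), chr12:98839168-98844407, 229845 bp from a 5S_rRNA copy (76.3 RPM), and chr1:132327837-132332677 in an exon of the non-coding transcript Gm15674 (72.8 RPM). These held reads in 33, 31 and 27 other animals. Next came regions 88724 bp from 4632415L05Rik (55.0 RPM) and 362907 bp from Hnf4g (51.5 RPM). Others lay 229979 bp from Pcsk1 (49.7 RPM), 24571 bp from Mlph (44.4 RPM) and in an intron of Lrrc6 (49.7 RPM). In that order these held reads in 20, 25, 12, 27 and 24 other animals.

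The coding share of the chromosomes was not counted as a background here. Regions overlapped coding exons in 7 cases. In C7250 these were Cct7, a subunit of the CCT chaperonin (22.6 RPM, 15 reads), Msh5, needed for meiotic recombination (18.1 RPM), Eif4g3, a translation initiation factor (18.1 RPM), Lztr1, an adaptor of a ubiquitin ligase (16.6 RPM), and Xrra1 (10.5 RPM). In H032265 it was Lrp4, a receptor of the neuromuscular junction (10.4 RPM), and in C5731 Slc39a11 of a family of zinc transporters (12.4 RPM, with a read in 1 other animal). The reference sequence around the overlap with the coding exon is given for the strongest of each animal. For Slc39a11 the region with reads begins at chr11:113384865, so the stretch before that base lies outside it. Capitals are coding bases, and the regions mark clusters of reads beside an insertion rather than its point.

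Cct7 in C7250, chr6:85412006-85412205 (mm9, plus strand of the reference): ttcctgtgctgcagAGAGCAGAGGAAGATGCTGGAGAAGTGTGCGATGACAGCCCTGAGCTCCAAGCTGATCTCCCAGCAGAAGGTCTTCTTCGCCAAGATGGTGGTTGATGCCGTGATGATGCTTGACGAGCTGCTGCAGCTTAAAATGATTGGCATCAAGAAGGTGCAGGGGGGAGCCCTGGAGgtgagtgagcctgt
Lrp4 in H032265, chr2:91313272-91313471 (mm9, plus strand of the reference): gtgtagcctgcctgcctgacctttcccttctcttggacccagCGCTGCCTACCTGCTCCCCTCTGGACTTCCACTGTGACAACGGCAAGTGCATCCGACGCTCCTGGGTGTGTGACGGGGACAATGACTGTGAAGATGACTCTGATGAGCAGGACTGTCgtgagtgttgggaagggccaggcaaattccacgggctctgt
Slc39a11 in C5731, chr11:113384802-113385001 (mm9, plus strand of the reference, gene on the minus strand): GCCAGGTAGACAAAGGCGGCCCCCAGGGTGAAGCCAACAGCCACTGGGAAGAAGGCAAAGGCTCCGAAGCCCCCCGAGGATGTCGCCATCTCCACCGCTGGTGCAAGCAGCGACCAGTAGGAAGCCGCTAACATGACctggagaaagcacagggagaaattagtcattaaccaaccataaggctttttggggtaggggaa

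Of the 130 insertions of the KO animals 64 lay in annotated genes, 55 of them in introns, 6 at coding exons and 3 at UTRs. The share per animal was 51.9% (C7250), 47.4% (H04408) and 47.4% (H032265). In WT it was 16.7% (C5733), 58.8% (C5736) and 43.8% (C5731). C5734 and H04405 had no insertion and dropped out of this comparison and the next. The exact two-sided permutation test over 3 and 3 animals gave p = 0.6 (adjusted 0.6), and annotated genes cover 39.8% of the chromosomes. Without C5733 the exact test gave p = 1. In the 33 insertions of C5736 and C5731 together, 51.5% lay in genes. The insertions of the KO animals were spread over 21 chromosomes.

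Scaled to RPM, the median read support of insertions was lower in each KO animal than in each WT animal. The median RPM was 12.8 (C7250), 11.7 (H04408) and 13.4 (H032265) in KO, and 15.97 (C5733), 13.9 (C5736) and 16.5 (C5731) in WT. The KO/WT animal had 14.2. The ranges did not overlap, but with 3 animals a side the exact two-sided permutation test cannot go below p = 0.1, which was its value (adjusted 0.343). Without C5733 the ranges did not overlap either (exact p = 0.2, the smallest for 3 and 2 animals). At a threshold of 20 RPM the sign of this difference turned. At 5 RPM, with at least 10 reads and with libraries thinned to equal depth the separation was no longer complete. In unscaled reads the medians were 8.5 (C7250), 8 (H04408) and 9 (H032265) in KO. In WT they were 9 (C5733), 9 (C5736) and 12 (C5731), so H032265 was level with C5733 and C5736. The summed RPM of insertions was 0, 824, 282 and 844 in the KO animals and 5454, 289, 289 and 0 in the WT animals, with 310 in the KO/WT animal. The exact one-sided permutation test for more in KO gave p = 0.6 (adjusted 0.6) and without C5733 p = 0.371.

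To place these levels, loci with at least 50 RPM in 1 parent and no read in the other were used, since an offspring can carry them on 1 chromosome only. There were 29, of which 22 lay on autosomes. Each offspring had 12 to 20 of the 29 called, at a median of 166 to 203 RPM. The autosomal loci were called in 55.1% of 198 combinations of locus and offspring (95% Clopper-Pearson interval 47.8 to 62.1%, which treats linked loci as independent). Against this level, the median insertion reached 6.32% (C7250), 7.05% (H04408), 7.32% (H032265), 9.42% (C5733), 6.92% (C5736), 9.76% (C5731) and 7.11% (C7249). The strongest insertion of any animal other than C5733 reached 17.1 to 21.5%, and that of C5733 48.2%. No single-animal insertion thus reached the median read support of these loci. Loci under 50 RPM in the parent were left out of them, whereas insertions were called from 10 RPM. The median and the lowest level of these loci depend on that cutoff, which was not varied. Single loci of this kind were weaker, and in C5733 the called autosomal ones held 44.4 to 250 RPM. Its strongest insertion, with 81.6 RPM, lay within that range. In C5736 the strongest held 43.1 RPM and the lowest such locus 44.6 RPM. In each other animal with insertions the strongest also lay below the lowest such locus.

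**Figure D3:**
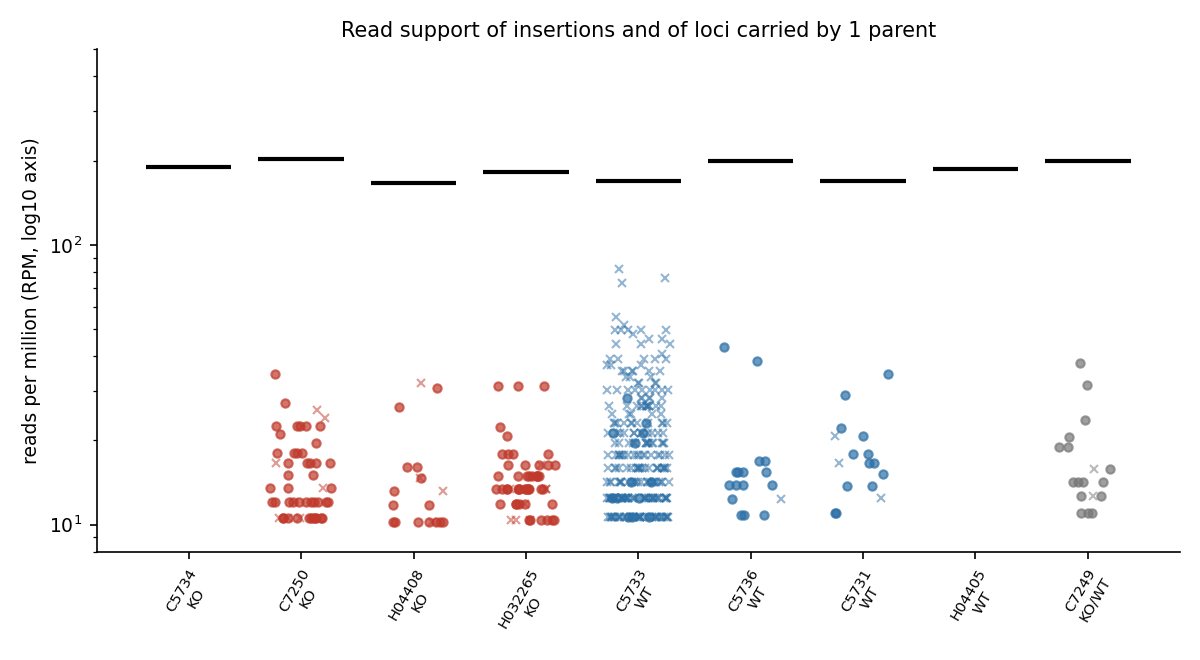
RPM on a log10 axis of every single-animal insertion in each offspring, as filled points where no other animal has a read and as crosses where another has; black bars are the median RPM of loci carried by a single parent in the same animal. The bars, for loci with at least 50 RPM in that parent, lie between 166 and 203 RPM, above every insertion.

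A second library was made from C5731 and from C5734. All 16 insertions of the C5731 main library had a read in the second one (100%, 95% Clopper-Pearson interval 79.4 to 100%), and 14 of them were called there. The second library called 24 insertions by the same definition. All 24 had a read in the main library, where 14 were called. The median RPM of the 16 was 16.5 in the main and 17.2 in the second library. C5734 had 0 insertions in both libraries, at 699932 and 685895 reads. Of the inherited loci, 99.3% in C5731 and 98.9% in C5734 were called again, and the log2 ratio between both libraries had an SD of 0.22 and 0.21. The labels do not say whether both libraries came from 1 DNA sample.

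**Figure D4:**
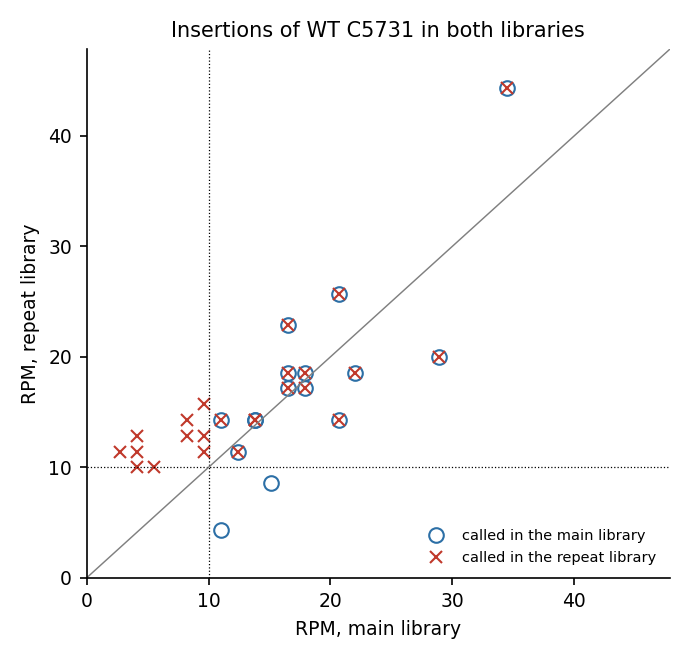
RPM of the insertions of WT C5731 in its main library (x axis) and its second library (y axis), with circles for those called in the main and crosses for those called in the second library; dotted lines mark 10 RPM. All points lie above 0 on both axes, and 14 insertions were called in both.

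New insertions shared by littermates were then searched for. Regions called in at least 2 of the 9 offspring, without a read in a parent, numbered 4, and each was shared by C5733 and C5736. Without C5733 no such region was left. One of them, chr9:25657943-25661937, lay near probe-like sequence and another, chr1:160900142-160903934, was called in 1 animal that does not descend from them. The other two, which met the definition, were chr5:44354947-44356437, 13667 bp from Fgfbp1, with 24.8 and 10.8 RPM and chr12:105465469-105466549, 6130 bp from Serpina3f, with 14.2 and 10.8 RPM. These levels lay below the medians of 166 to 203 RPM at inherited loci of 1 chromosome with at least 50 RPM in a parent. They held reads in 15 and 9 of the 57 main libraries outside the family.

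The KO/WT animal C7249 later sired the 8 animals of the next mating. Since the definition above leaves out regions called in these 8 animals, calls in them were allowed here. C7249 then had 18 insertions again, and none had a read in any of the 8 libraries, which had 580349 to 690300 reads each (0 of 18, 95% Clopper-Pearson interval 0 to 18.5%). With reads in its parents allowed too it had 19, of which 0 were called and 1 had a read in an offspring. The same was asked of the parents, for loci called in a parent and in no other animal but its descendants, away from probe-like sequence. Of 25 such loci of the mother 0 were called in any of the 17 descendants and 1 had a read there, and of 62 loci of the father 2 were called and 4 had a read. Without a read in the remaining libraries the mother had 21 and the father 54, and 0 of them were called in a descendant (upper 95% Clopper-Pearson limits 16.1 and 6.6%), with a read at 1 locus of the mother and at 0 of the father. The strongest, in the mother at chr7:30886158-30886832, held 195 RPM and had no read in any of the 9 offspring.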

How the data were processed

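Per the labels and methods, the authors captured tail DNA with ETn LTR probes, sequenced read pairs, mapped each mate separately to mm9 with Bowtie, removed duplicates with SAMtools, kept unique reads with an ETn mate and merged them with bedtools. Versions of these tools: not given in the sources used here. Each deposited file gives raw counts of such reads per region of 1 library, neither normalized nor pooled. In the study, regions close to annotated ETn repeats or at known polymorphic ETn sites were removed afterwards. A repeat annotation was not used here. Instead, regions within 1000 bp of sequence like a capture probe (blastn 2.17.0, word size 11, e-value 1e-05) were left out.

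Called regions (10 RPM) of the 76 main libraries within 1000 bp were joined, which gave 4900 loci. Genes came from GENCODE vM1 on the same assembly. Numbers per animal were compared by exact permutation of the rank sum with midranks, one-sided for more in KO for counts and summed RPM, and adjusted by Benjamini-Hochberg over 6 tests. The effect is the percent of pairs with KO above WT minus the percent below. Reads per locus were tested with edgeR 4.0.16 (TMM, filterByExpr), with DESeq2 1.42.0 as an alternative. The edgeR step was tested on simulated data. Intervals cover counting error only, since reads carry no molecular identifiers.

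Named insertions were the 2 strongest of each animal, all at 40 RPM or more, all at coding exons, and regions shared by offspring. Of the regions of C5733 at 40 RPM or more, only the highest and some others are named. At the locus comparison the 5 loci higher and the 5 lower in KO with the smallest p were named. Members, lists and tests were chosen with earlier results of these data known, the high count of C5733 among them. A list of insertions in the study's supplementary files had been seen, with its number of entries per animal, before the last alternatives were set. None of its values is used. An exclusion of regions that resemble whole ETn elements was tried in 7 versions after the counts per animal were seen. All 7 are given for the insertion counts. For the other measures those that changed the sign or the separation are given.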

Additional observations from a re-analysis of the deposited data

Results flagged for a closer look

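Values of C5733 stood apart from the other 3 WT animals in 4 measures, by the gap to the nearest animal as a share of the range (Dixon's test at 95%). These were its 264 single-animal insertions, its 352 regions before probe-like sequence was left out, their summed RPM of 5454 and its 3431 called loci. Of 14 groups examined in this way, chance alone would flag about 1 in 20, and the 4 measures share the same library. The part of the library in these values was not tested.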

How the results depend on the processing

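No alternative brought a comparison of insertions between KO and WT past the 0.05 threshold of the exact test. For median RPM and the share in genes none could, since too few animals had insertions. The smallest p that the exact test allowed for these was 0.0571 or more in every setting. Values are the percent of pairs with KO above WT minus the percent below. For insertions per animal (18.8) the sign turned with at least 10 reads (-6.25) and with an exclusion within 5000 bp (-6.25), and as a difference of means KO had -41.8 insertions per animal. Leaving out 1 animal gave 0 to 58.3, and over all settings the exact p was 0.143 to 0.771. Without a read in any other animal the sign held in every setting, with an exact p from 0.0571 to 0.343. Summed RPM (-6.25) turned at 20 RPM (6.25), with reads allowed in parents (25), with joining within 5000 bp (6.25), and with exclusion of whole-element sequence at 1 element of 80% identity (18.8), 5 elements (18.8), 10 (31.3) and 20 (31.3). Leaving out 1 animal gave -33.3 to 25. Median RPM (-100) turned at 20 RPM (11.1). Its separation was incomplete at 5 RPM (-50), with at least 10 reads (-33.3) and when thinned (-88.9). The same held with whole-element exclusion at 1 element of 80% identity (-55.6), 5 elements (-77.8) and 10 (-55.6). The share in genes (33.3) turned at 5 RPM (-50), when thinned to 525419 reads (-11.1), with the mean of both libraries (-11.1), and with whole-element exclusion at 1 element (-33.3), 5, 10 and 20 (-11.1 each). Inherited loci (75) turned at 5 RPM (-25), and leaving out 1 animal gave 66.7 to 100, where the value without the WT animal H04405 reached p = 0.0286 by the exact test. Without H04408, whose reads on chromosome Y went against its label, the exact p was 0.486 for insertions per animal and 0.257 for those without a read in any other animal. The cause was not tested.

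The whole-element exclusion was chosen after seeing the data. Over its 7 versions C5733 kept 25 to 138 insertions, C7250 34 to 54, H032265 36 to 57, H04408 9 to 19, C5736 14 to 17, C5731 9 to 16 and C7249 6 to 18. The cutoffs were 1 element at 80% identity, then 5, 10, 20, 50, 100 and 200 elements. In that order the value for insertions per animal was 25, 31.3, 31.3, 43.8, 31.3, 18.8 and 18.8 (exact one-sided p 0.186 to 0.386). Without a read in any other animal it was 31.3 at 80% identity and 43.8 at each other cutoff (exact one-sided p 0.186 to 0.286). The KO mean of insertions per animal exceeded the WT mean at all cutoffs but 200 elements (32.5 and 42.8). Loci that differ on edgeR's test numbered 14, and 17 with DESeq2, and leaving out 1 animal gave 12 to 24, with the highest value without C5731. No paired analysis was possible because animals carry no number in the labels that would match a KO to a WT littermate. At 10 RPM a call rests on 6 or more reads, so insertions in a small share of cells could not be detected at this depth.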
